A study of Mus musculus with 5 samples.

Results

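The genes described here are the 7 mouse genes of the 14-3-3 protein family, Ywhab, Ywhae, Ywhag, Ywhah, Ywhaq, Ywhaz and Sfn, among 19057 genes named for the array. Their probes, 12 of the 45281, were taken by gene symbol from the platform's probe annotation, with no use of measured values. The family itself was chosen with earlier results of these data known. Parvalbumin-positive cells were sorted from the cerebral cortex of C57BL/6J mice, and their total RNA was read on single-colour Illumina bead arrays, all samples taken at zeitgeber time 16 h, that is 16 h after lights-on. The groups were 2 samples of genotype PV-GFP; Clock-/- (KO, replicates 1 and 3, aged 61 and 60 days) and 3 of genotype PV-GFP; Clock+/+ (WT, replicates 1, 2 and 3, aged 61, 64 and 64 days), so that both groups carried the PV-GFP reporter. The labels give Clock-/- as a genotype with no cell type restriction. They do not say whether a sample is 1 animal or a pool, so the p-values cover only the spread among these 5 samples, which may be technical.

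14-3-3 proteins are small, acidic, abundant in brain, and act as dimers. They bind other proteins at phosphorylated serine or threonine residues and thereby change where those partners sit in the cell, how active they are, or how long they last. The vertebrate isoforms are beta (Ywhab), epsilon (Ywhae), gamma (Ywhag), eta (Ywhah), theta (Ywhaq), zeta (Ywhaz) and sigma (Sfn). Sfn is known as an isoform of epithelial cells and a target of p53. CLOCK, the product of the deleted gene, pairs with BMAL1 and drives transcription from E-box elements.

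Because the deleted gene encodes a factor that binds E-boxes, the promoters of the family were read for that motif. RefSeq promoter sequences (build GRCm38.p6, 250 bases before to 50 after the start of the gene) were found for 5 of the 7 genes, Ywhae, Ywhag, Ywhah, Ywhaq and Sfn. The palindromic E-box CACGTG was in 0 of these 5, against 7.15% of the 32851 promoters in the table. The variant CACGTT, searched on both strands, was likewise in 0 of 5, against 4.68% of all promoters. The looser pattern CANNTG, which contains CACGTG, was in 2 of 5 (Ywhae and Sfn), against 72.31% of all. The promoters of 3 members are shown to set a member with matches beside a pair of measured members without any. They are those of Ywhae (chr11:75732637-75732936, plus strand), whose 2 CANNTG matches are in capitals, Ywhag (chr5:135934592-135934891, minus strand) and Ywhah (chr5:33018566-33018865, plus strand), each written 5′ to 3′ along the gene:
Ywhae: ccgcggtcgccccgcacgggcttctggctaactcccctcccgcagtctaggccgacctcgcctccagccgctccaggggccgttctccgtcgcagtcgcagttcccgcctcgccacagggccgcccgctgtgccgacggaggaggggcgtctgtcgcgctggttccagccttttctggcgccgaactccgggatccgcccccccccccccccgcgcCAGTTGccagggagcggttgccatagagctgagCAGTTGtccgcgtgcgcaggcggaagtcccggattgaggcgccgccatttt
Ywhag: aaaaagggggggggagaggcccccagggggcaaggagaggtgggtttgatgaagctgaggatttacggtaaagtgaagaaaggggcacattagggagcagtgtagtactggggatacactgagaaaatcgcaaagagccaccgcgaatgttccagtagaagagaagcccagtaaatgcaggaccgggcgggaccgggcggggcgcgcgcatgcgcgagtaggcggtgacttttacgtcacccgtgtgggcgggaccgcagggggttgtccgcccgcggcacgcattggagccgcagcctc
Ywhah: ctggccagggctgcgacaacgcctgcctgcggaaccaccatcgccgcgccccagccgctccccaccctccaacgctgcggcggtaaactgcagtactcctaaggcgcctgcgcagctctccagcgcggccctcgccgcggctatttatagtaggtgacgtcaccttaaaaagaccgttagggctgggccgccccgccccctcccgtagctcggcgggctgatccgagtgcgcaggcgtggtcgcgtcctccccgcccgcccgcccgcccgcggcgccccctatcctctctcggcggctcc
The Ywhae matches begin 34 bases and 1 base before the start of the gene. G and C made up 71.7% of the Ywhae and Ywhah promoters and 61.3% of the Ywhag promoter, against a median of 52.7% over all promoters. These are matches of letters in a short window and say nothing of binding.

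The arrays were dim, and 1 KO array stood apart. A probe was counted as detected where the deposited detection p, which sets it against background on the same array, was under 0.05. That held for 1978 and 2709 probes on the KO arrays (KO replicate 3 and replicate 1) and for 2685 to 3671 on the WT arrays, where 2264 would pass on an array with no signal. KO replicate 3 correlated with the other arrays at 0.751 to 0.827 across tested probes, and the other 4 arrays with each other at 0.860 to 0.924. These correlations run across probes, which are not independent replicates. None of the 3 Clock probes was detected on any array, so they do not check the genotype labels. Of the markers of the labelled cells, 5 of 8 parvalbumin interneuron genes and 4 of 8 GABA neuron genes were detected on at least 2 arrays. Of the listed markers of excitatory neurons (7 on the array, Slc17a7 among them), microglia (6, Cx3cr1), endothelial and mural cells (6, Cldn5) and blood (3, Hba-a1, Alas2 and Ptprc), none was, and 1 each was for other interneurons (Vip), astrocytes (Aldh1l1) and oligodendrocytes (Mbp). Outside these lists, and chosen after their values were seen, 1 of 4 probes of the globin Hbb-bt, 1 of 3 of the endothelial gene Egfl7 and the probe of Cd34 were detected on 4 arrays each.

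Of the 12 family probes, 7 probes of 5 genes were detected on at least 2 of the 5 arrays, against 7.39% of all probes on the array. They were both probes of Ywhab and Ywhaz, the probe of Ywhaq, and 1 of 2 probes for each of Ywhag and Ywhah. On the KO arrays 4 family probes (replicate 1) and 3 (replicate 3) were detected, against 7, 8 and 7 on WT replicates 1, 2 and 3. Of all probes, 5.98% and 4.37% were detected on these KO arrays, and 8.11%, 6.06% and 5.93% on these WT arrays. A probe of Ywhab (ILMN_2935362), a probe of Ywhag (ILMN_1258601) and a probe of Ywhaz (ILMN_2952914) were detected on all 5 arrays, 3 of 12 against 2.29% of all probes.

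The members without a usable probe were Ywhae and Sfn. The Ywhae probe (ILMN_1220100) had detection p-values of 0.401 and 0.796 in KO and 0.111, 0.397 and 0.563 in WT. The 2 Sfn probes (ILMN_2648169 and ILMN_2867084) ranged from 0.204 to 0.356 in KO and from 0.182 to 0.358 in WT. None of these 3 probes was above background on any array, so they give no difference between genotypes, and a level below the reach of these arrays is not an absence of the transcript. The second Ywhah probe (ILMN_1253578) was not detected on any array either (0.425 and 0.190 in KO, 0.254, 0.319 and 0.263 in WT). The second Ywhag probe (ILMN_2587515), which is annotated to another transcript record than the first, was detected on WT replicate 2 alone, at a detection p of 0.0107. Its detection p was 0.0652 and 0.0727 in KO and 0.0641 and 0.0919 on WT replicates 1 and 3. It was not tested.

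**Figure D1:**
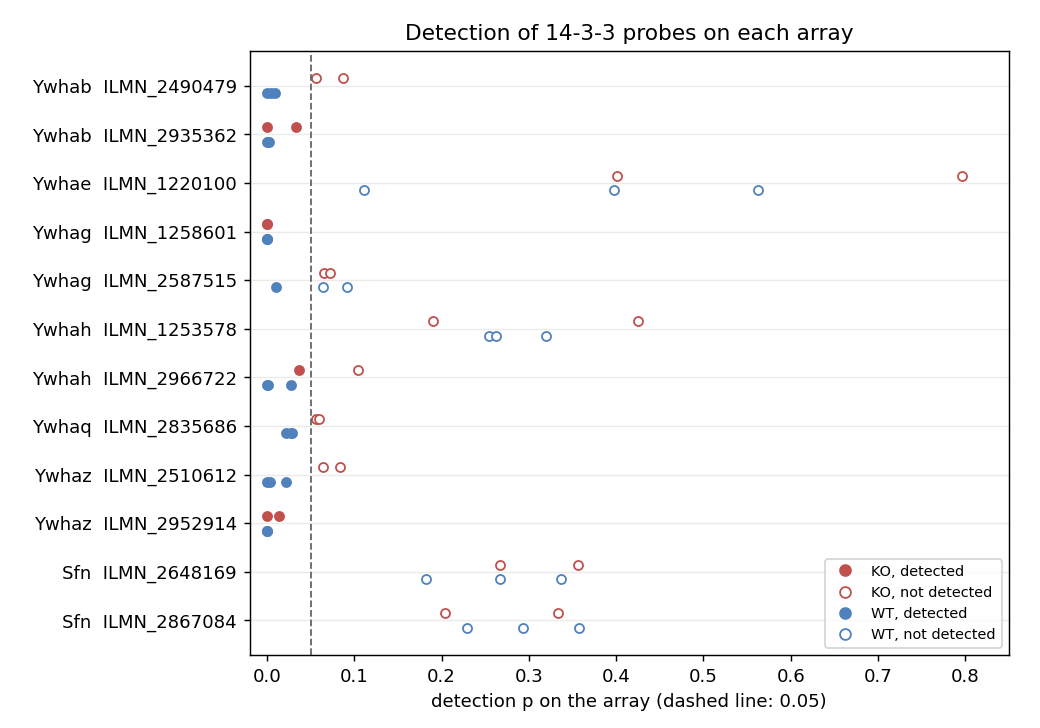
Detection p (x axis) of each of the 12 family probes (rows) on the 2 KO arrays (red) and the 3 WT arrays (blue); filled points lie under the dashed line at 0.05. The 7 tested probes are filled on all 3 WT arrays, and 3 of those 7 (1 each of Ywhab, Ywhaq and Ywhaz) are open on both KO arrays, at p-values between 0.0556 and 0.0865.

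The question put to these members was whether their RNA differed in cells without Clock. No family probe passed the test. By limma on normalised log2 signals, with p-values adjusted over the 3347 tested probes (Benjamini-Hochberg), 0 of the 7 tested family probes had an adjusted p under 0.05. The background was 0% of all tested probes, with a smallest adjusted p of 0.801. At an unadjusted p under 0.05 there were 4 family probes, all with a lower mean in KO, and 198 probes in all, 101 of them higher and 97 lower in KO. The lower ones were 2.90% of tested probes. The family's 4 became 3 with the authors' processed values or the replicate block, 1 under cyclic loess and 0 under median scaling, and ranged from 1 to 4 when 1 array was left out. An exact permutation test of 2 arrays against 3 cannot give a p below 0.1. A lower signal from sorted cells cannot be told apart between fewer cells of a kind and less RNA per cell.

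All 7 tested family probes were detected on all 3 WT arrays, and 3 of them on WT arrays alone. Entry through the group where a probe is high favours a lower value in the other group. Counts over the 7 are therefore descriptions and are set beside the 1581 probes detected on all 3 WT arrays. Both KO arrays lay below all 3 WT arrays for 4 of 7 family probes, against 10.6% of tested probes and 16.5% of the 1581. An unadjusted p under 0.05 with a lower mean in KO held for the same 4 of 7, against 6.01% of the 1581. The difference was below 0 for 6 of 7, against 49.4% of tested probes and 60.5% of the 1581. The median difference was -0.73 over the 7 family probes (-0.61 with the 3 probes not detected in KO at their bound), -0.069 over the 1581 probes and 0.0048 over all tested probes.

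**Figure D2:**
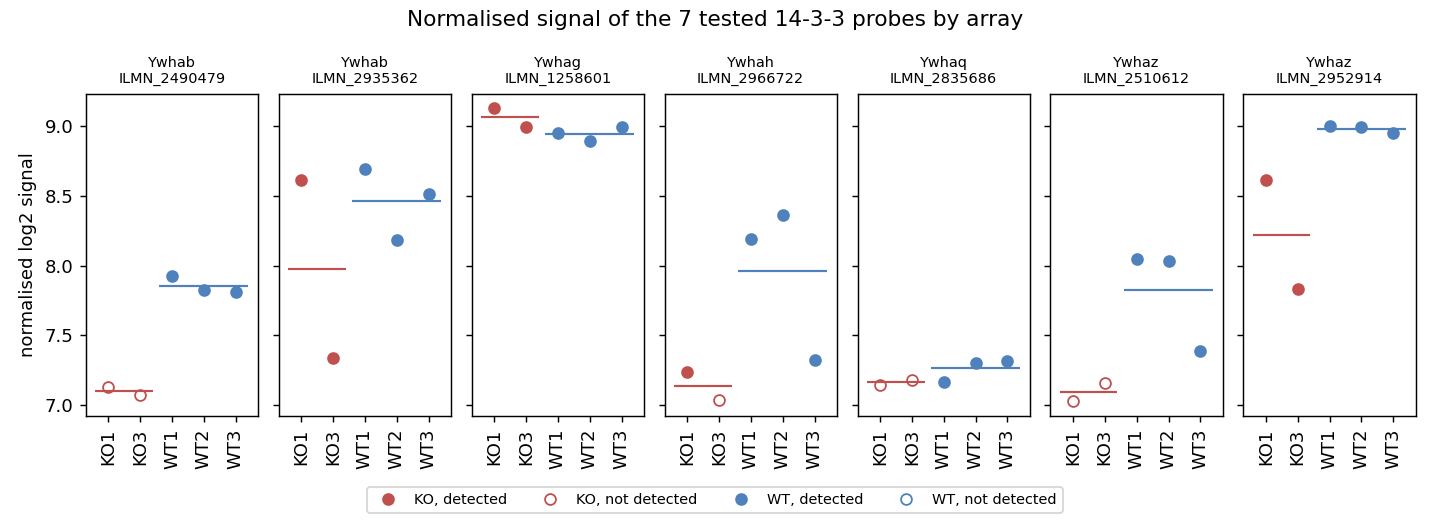
Normalised log2 signal (y axis) of the 7 tested probes on each array (x axis: KO replicates 1 and 3, WT replicates 1, 2 and 3); lines are group means, and open points were not detected on that array. KO lies wholly below WT for 4 probes, Ywhab ILMN_2490479, Ywhah ILMN_2966722 and both Ywhaz probes, and above WT by 0.0013 for Ywhag, which sits between 8.89 and 9.13 on all 5 arrays.

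Ywhaz encodes the zeta isoform, and its probes were lower on both KO arrays than on any WT array. Probe ILMN_2952914, detected on all 5 arrays, read 8.61 and 7.83 in KO (replicates 1 and 3), against 8.999, 8.994 and 8.949 in WT. The WT arrays were close together, and the KO arrays were 0.78 apart. The means were 8.22 ± 0.55 (SD, n = 2) in KO and 8.98 ± 0.028 (SD, n = 3) in WT, a difference of -0.76 ± 0.24 (SE) with a limma adjusted p of 0.801. KO replicate 3 gave most of this: the difference was -0.37 without it. Without KO replicate 1 it was -1.15, with a limma adjusted p of 0.0495 against KO replicate 3 alone, and -1.22 with an adjusted p of 0.0701 when the remaining arrays were normalised anew.

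The other Ywhaz probe, ILMN_2510612, read 7.03 and 7.16 in KO, against 8.05, 8.03 and 7.39 in WT. Every WT array detected it and neither KO array did (detection p 0.0833 and 0.0641). Here the KO arrays were close together and WT replicate 3 was the WT array nearest to them. Taken as a bound set by the lowest detected signal on each array, the KO level was at least 1.52-fold lower, with measured means of 7.09 ± 0.094 (SD, n = 2) in KO and 7.82 ± 0.38 (SD, n = 3) in WT and a limma adjusted p of 0.801. With only a bound in KO, the size of its difference cannot be set against that of the first probe.

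Ywhab encodes the beta isoform, and its 2 probes differed in whether the groups overlapped. Probe ILMN_2490479 read 7.13 and 7.07 in KO, against 7.92, 7.83 and 7.81 in WT. The groups did not overlap, and neither KO array detected it (detection p 0.0566 and 0.0865). The bound was at least 1.56-fold lower in KO, with measured means of 7.10 ± 0.039 (SD, n = 2) in KO and 7.85 ± 0.061 (SD, n = 3) in WT. The limma adjusted p was 0.801.

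Probe ILMN_2935362 of the same gene, detected on all 5 arrays, read 8.61 and 7.34 in KO, against 8.69, 8.18 and 8.51 in WT. KO replicate 1 lay within the WT range and KO replicate 3 below it, so the groups overlapped. The difference was -0.49 ± 0.36 (SE) with a limma adjusted p of 0.801, 0.15 without KO replicate 3, the opposite sign, and -1.13 without KO replicate 1. Over the 5 arrays, each probe centred on its own mean, the 2 Ywhab profiles differed by a root mean square of 0.43 log2 units and the 2 Ywhaz profiles by 0.36. Tested probes of different family genes lay from 0.13 (Ywhag with Ywhaq) to 0.60 (Ywhag with Ywhah) apart, so some were closer than probes of 1 gene. The sequences and transcript positions of the probes were not used here, so whether the probes of a gene read the same transcripts was not tested.

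Ywhah encodes the eta isoform. Probe ILMN_2966722 read 7.24 and 7.03 in KO, against 8.19, 8.36 and 7.33 in WT, and was detected on KO replicate 1 and all 3 WT arrays. The groups did not overlap, but WT replicate 3 lay within 0.086 of KO replicate 1, and the remaining WT arrays far above both. The means were 7.14 ± 0.15 (SD, n = 2) in KO and 7.96 ± 0.56 (SD, n = 3) in WT. The difference of -0.82 ± 0.31 (SE) was the 9th lowest of the 3347 tested probes, with a limma adjusted p of 0.801. It was -1.14 without WT replicate 3 and between -0.92 and -0.62 without any 1 of the other 4 arrays, normalised values kept.

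Ywhag encodes the gamma isoform, and its probe ILMN_1258601 had a detection p of 0 on all 5 arrays. It read 9.126 and 8.996 in KO, against 8.949, 8.890 and 8.994 in WT. Both KO arrays lay above all 3 WT arrays, as for 11.2% of tested probes, but KO replicate 3 cleared WT replicate 3 by only 0.0013. The difference was 0.12 ± 0.15 (SE), with a 95% interval from -0.24 to 0.48 and a limma adjusted p of 0.869. Under median scaling, which placed the median of all tested probes at -0.39, it was -1.27, the opposite sign. Whether Ywhag differed from the other members in its response was not tested.

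Ywhaq encodes the theta isoform. Its probe ILMN_2835686 read 7.15 and 7.18 in KO, against 7.17, 7.30 and 7.32 in WT. KO replicate 3 lay above WT replicate 1, so the groups overlapped, although every WT array and neither KO array detected it. All 5 detection p-values were near 0.05, at 0.0556 and 0.0598 in KO and 0.0278, 0.0214 and 0.0289 in WT. The bound in KO was 1.03-fold lower, a value without sampling error that does not set the overlapping groups apart. The measured means were 7.16 ± 0.024 (SD, n = 2) in KO and 7.26 ± 0.084 (SD, n = 3) in WT. The measured difference was -0.10 ± 0.15 (SE), with a 95% interval from -0.46 to 0.26 and a limma adjusted p of 0.884.

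**Figure D3:**
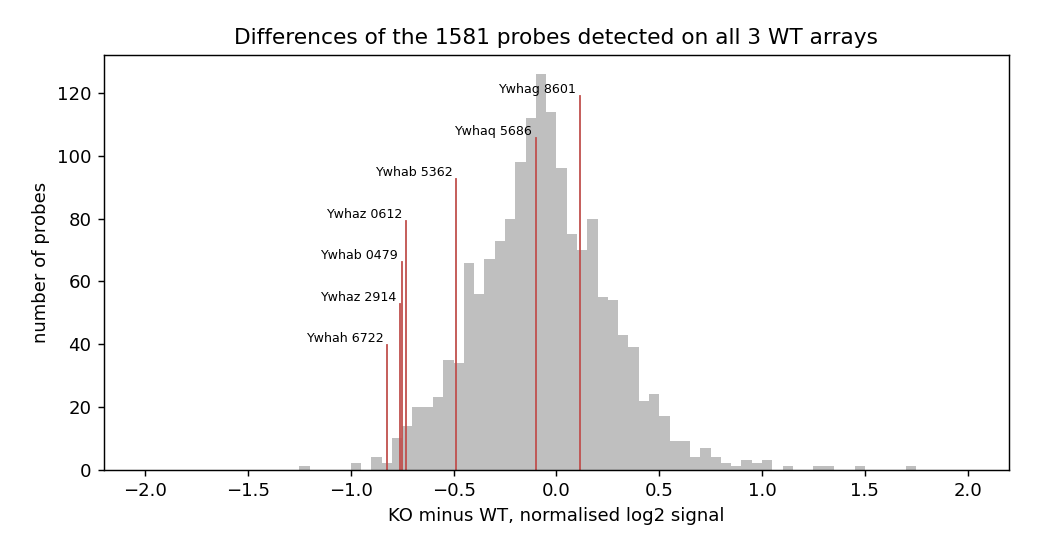
Distribution of KO minus WT (x axis, normalised log2 signal) over the 1581 probes detected on all 3 WT arrays (y axis: number of probes per 0.05-wide bin), with the 7 family probes as red lines named by gene and the last 4 digits of the probe. The lines stand at measured differences, also for the 3 probes with only a bound in KO (Ywhab ILMN_2490479, Ywhaz ILMN_2510612 and Ywhaq): 4 lie between -0.82 and -0.73 in the lower tail, Ywhab ILMN_2935362 is at -0.49, and Ywhaq and Ywhag are near the middle at -0.10 and 0.12.

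The array that stood apart entered these values unequally. KO replicate 3 lay below KO replicate 1 for 5 of 7 family probes, against 57.0% of tested probes. The gap was 1.28 for Ywhab ILMN_2935362 and 0.78 for Ywhaz ILMN_2952914, and at most 0.21 in size for the other 5. Of the 7 probes, KO replicate 1 detected 4 and KO replicate 3 detected 3, against 89.0% and 69.4% of the 1581 probes. Neither KO array detected 3 of the 7, against 7.21% of the 1581. Compared with the WT mean, KO replicate 1 alone lay at -0.72 for Ywhah ILMN_2966722 and -0.37 for Ywhaz ILMN_2952914, both detected on it. It did not detect Ywhab ILMN_2490479 or Ywhaz ILMN_2510612.

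On a simpler scale, the raw signal divided by the median of its array, KO was below WT for much of the array. Both KO arrays lay below all 3 WT arrays for 29.8% of tested probes and for 47.4% of the 1581, and for 5 of 7 family probes, and above them for 1.11% of tested probes and 0 of 7 family probes, so a separation on this scale is not a result about the family. For Ywhab ILMN_2490479 this was 1.52 and 1.42 in KO, against 2.21, 1.90 and 1.81 in WT. For Ywhaz ILMN_2952914 it was 2.02 and 1.65 in KO, against 3.13, 2.48 and 2.18 in WT. For Ywhaz ILMN_2510612 it was 1.45 and 1.47 in KO, against 2.30, 1.98 and 1.70 in WT. These ratios did not overlap between the groups, nor did those of Ywhah. For Ywhah ILMN_2966722 it was 1.59 and 1.39 in KO, against 2.41, 2.11 and 1.67 in WT. For these 4 probes WT replicate 1, the array with the most detected probes, was the highest. It also had the lowest raw median, 1121.3 against 1687.0 to 1990.7 on the other arrays. Before division its signal lay below that of KO replicate 1 for all 4 probes (2477.4 against 2957.1 for Ywhab ILMN_2490479). For Ywhab ILMN_2490479 and Ywhaz ILMN_2510612 it lay below KO replicate 3 as well. The undivided signals of WT replicates 2 and 3 lay above both KO arrays for all 4 probes (3210.4 and 3604.5 for Ywhab ILMN_2490479). Only the place of WT replicate 1 against the KO arrays changed with the scaling. For Ywhag ILMN_1258601 it was 2.28 and 1.98 in KO, against 3.08, 2.41 and 2.21 in WT, so that the groups overlapped.

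The size of the differences moved with the settings, also in those that kept WT replicate 1, whose own part was not tested. The differences of Ywhab ILMN_2490479 and Ywhaz ILMN_2510612 are measured values of probes not detected in KO, given to show how the settings move them. With the normalised values kept and WT replicate 1 left out, they were -0.72 for Ywhab ILMN_2490479, -0.71 for Ywhah ILMN_2966722 and -0.62 and -0.75 for Ywhaz ILMN_2510612 and ILMN_2952914. With the remaining 4 arrays normalised anew they were -0.28, -0.28, -0.26 and -0.46 in the same order. The bounds in KO were then at least 1.16-fold lower for Ywhab ILMN_2490479 and at least 1.14-fold lower for Ywhaz ILMN_2510612. Cyclic loess in place of quantile normalization gave -0.36, -0.41, -0.42 and -0.27. Without background correction they were -0.28, -0.28, -0.28 and -0.24. All 4 stayed below 0 in each of these settings, and none passed.

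**Figure D4:**
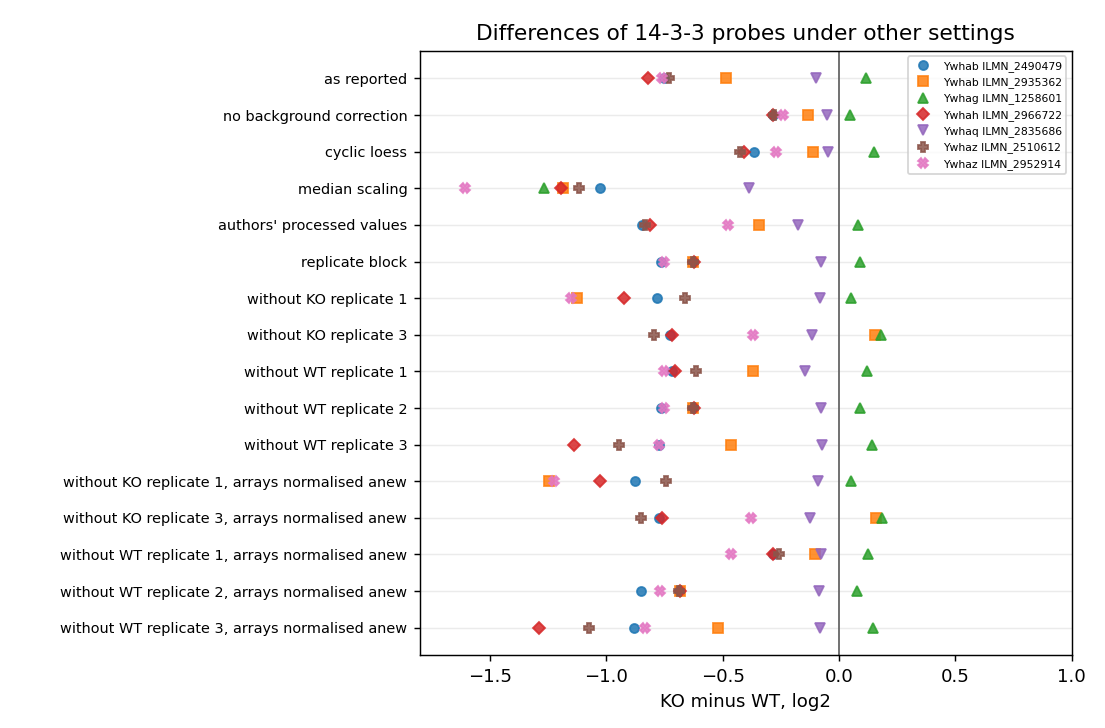
KO minus WT (x axis, log2) of the 7 tested probes (symbols) under the reported setting and others (rows). Ywhab ILMN_2490479, Ywhah, Ywhaq and both Ywhaz probes lie below 0 in every row shown, Ywhab ILMN_2935362 crosses to 0.15 and 0.16 without KO replicate 3, and Ywhag crosses to -1.27 under median scaling.

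The mean signal of parvalbumin interneuron markers was lower on both KO arrays than on any WT array. For GABA neuron markers this held for KO replicate 3 alone. The mean log2 signal over all probes of the 8 parvalbumin interneuron markers was 7.23 and 7.03 in KO, against 7.41, 7.37 and 7.32 in WT. For the 8 GABA neuron markers it was 7.41 and 7.15 in KO, against 7.49, 7.45 and 7.37 in WT. KO replicate 3 was the lowest array for both lists. Of their tested probes, 7 of 8 and 5 of 5 had a difference below 0, against 49.4% of all tested probes, and none passed. Of those detected on all 3 WT arrays it was 5 of 6 and 5 of 5, against 60.5% of the 1581. The excitatory neuron list was at 6.50 and 6.56 in KO and 6.55 to 6.58 in WT, with no probe detected on any array, and the microglia list at 6.56 and 6.60 in KO and 6.57 to 6.58 in WT, also with none. The part of these shifts in the family's values was not tested.

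Proteins that 14-3-3 dimers bind, and kinases that phosphorylate their binding sites, formed a list of 68 genes, 64 of them on the array. Of these, 16 were tested, with 18 probes, and 0 passed. The difference was above 0 for 10 probes and below 0 for 8, with a median of 0.040 beside 0.0048 over all tested probes. A difference below 0 held for 49.4% of all tested probes. It held for 0 of 5 probes of signalling clients (1 of the 5, Rgs3, at 0.0015), 0 of 2 for cell cycle and death and 0 of 1 for transcription. For clients in neurons it was 3 of 3 and for kinases 5 of 7. The transcription probe, of Crtc2, was detected on KO arrays alone. Of the 10 partner probes detected on all 3 WT arrays it held for 6, against 60.5% of the 1581. These were 3 of 3 for clients in neurons and 3 of 4 for kinases, with 0 of 2 for signalling and 0 of 1 for cell cycle and death.

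The partner with the smallest p was Araf, a RAF kinase held inactive by 14-3-3. Its probe ILMN_2564840 read 7.87 and 8.13 in KO, against 7.22, 7.62 and 7.50 in WT. The difference was 0.55 with no overlap, and the other Araf probe gave 0.25 with overlap. Both KO arrays lay above all 3 WT arrays for 11.2% of tested probes. Crtc2, a CREB coactivator that 14-3-3 proteins keep in the cytoplasm, read 7.31 and 7.29 in KO, against 6.83, 6.93 and 7.03 in WT. It was detected on both KO arrays and no WT array, so it entered the test only through the group where it is high. Its direction is therefore a description and not a result. The bound was at least 1.12-fold higher in KO. Prkacb, a catalytic subunit of protein kinase A, read 8.86 and 8.23 in KO, against 9.05, 9.14 and 9.05 in WT. Atp2b1, a calcium pump of the plasma membrane, read 7.28 and 7.14 in KO, against 7.48, 7.56 and 7.86 in WT. These 4 had limma adjusted p-values of 0.801. The next by p were Prkce, an isoform of protein kinase C, at -0.27 and -0.13 on 2 probes, the cell cycle phosphatase Cdc25b at 0.19, Prkaca, another catalytic subunit of protein kinase A, at -0.19, and Prkaa1, a catalytic subunit of AMP-activated kinase, at 0.13.

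For the most intense tested probe of each gene, the closest profiles were sought among 746 probes of other named genes detected on all 5 arrays. Likeness was the root mean square difference over the 5 arrays after each probe was centred on its mean. Nearest to Ywhaz ILMN_2952914 were Snurf (0.096) and Cplx1 (0.11), a complexin of the vesicle release machinery, against a median of 0.50. Nearest to Ywhab ILMN_2935362 were Kcna6 (0.070), a potassium channel subunit, and Hspa8 (0.12), a constitutive heat shock protein, against 0.54. Nearest to Ywhah ILMN_2966722 were Tmx4 (0.12) and Trim2 (0.18), against 0.61. Nearest to Ywhag ILMN_1258601 were Uqcrc1 (0.016), a subunit of respiratory complex III, and Phex (0.031), against 0.25. Nearest to Ywhaq ILMN_2835686 were Ric8b (0.038) and C130046K22Rik (0.041), against 0.26. With 5 arrays such a ranking is a description only.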

How the data were processed

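RNA was amplified and biotin-labelled before hybridisation, per the labels' protocols, and GenomeStudio was used, per the submitters' processing notes. The authors deposited raw intensity values, not normalized, with a detection p-value per probe and array, per the file headers. A second table holds processed intensity values on a linear scale that the authors deposited; all 5 columns share 1 range and some values are negative, and how it was made is not given in the sources used here.

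Background correction and normalization of the raw intensities used neqc of limma 3.58.1 (R 4.3.3), that is normexp on the detection p-values, quantile normalization and log2 with an offset of 16. Probes with detection p under 0.05 on at least 2 of 5 arrays were tested (lmFit, eBayes, two-sided, Benjamini-Hochberg over 3347 probes, threshold 0.05), after the test was tried on simulated data. Where no array of a group detected a probe, its level there is a bound: on each array the higher of its own value and the lowest detected signal. A fold bound compares group means and carries no sampling error. Bounds and differences are on the offset log2 scale, which understates changes of dim probes. The number of arrays limits the precision.

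Gene symbols came from the platform annotation: 34885 probes had 1 symbol, 18 several and 10378 none. All family probes are named, each on its own; of the partner list those tested are counted and the 8 genes of smallest p named. The family, lists and tests were chosen with earlier results of these data known. Replicate numbers are shared by the groups, but the labels do not say that they mark a litter, batch or day. Alternatives covered background correction, normalization, the authors' values (set to at least 1, log2), the detection filter, the variance model, a replicate block and leaving out each array.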

Additional observations from a re-analysis of the deposited data

How the results depend on the processing

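No family probe passed under any setting that kept all 5 arrays. The count of all probes that passed was 0 in each of those settings and 0 to 48 when 1 array was left out. The 48 (27 after new normalization) came without KO replicate 1, against KO replicate 3 alone, whose spread was assumed to be that of WT; for the family the range was 0 to 1, the 1 being Ywhaz ILMN_2952914. Detected family probes numbered 7 as reported, 3 with detection on all 5 arrays, 6 at detection p under 0.01 and 8 at under 0.1, a setting chosen after seeing the data; they stayed at 7 without any 1 array. The sign changed for 2 probes: Ywhag ILMN_1258601 was at -1.27 under median scaling, and Ywhab ILMN_2935362, with 1 array left out, ranged from -1.13 to 0.15 with normalised values kept and from -1.25 to 0.16 with new normalization, above 0 only without KO replicate 3. The cause was not tested. Median scaling put the median of all tested probes at -0.39, the median of the family's 7 probes at -1.19, and the split at an unadjusted p under 0.05 at 0 higher and 23 lower, against 101 and 97 as reported. That split was 62 higher and 123 lower with the processed table, 70 and 128 without background correction, 3 and 3 under cyclic loess, 20 and 38 at detection p under 0.01 and 1002 and 850 with no filter. With the replicate block, which leaves WT replicate 2 without weight, Ywhaz ILMN_2952914 was at -0.75 and 0 probes passed. Deviations from group means correlated across probes at 0.20 between KO and WT replicates 1 and at 0.13 between replicates 3. The KO arrays' deviations are equal and opposite by construction, so the unmatched pairs mirror these values. KO replicate 3 with WT replicate 1 gave -0.20 and KO replicate 1 with WT replicate 3 gave -0.13. These values are thus not separate evidence of pairing. Ywhaq was not tested at detection p under 0.01, and neither it, Ywhah, Ywhab ILMN_2490479 nor Ywhaz ILMN_2510612 with detection on all 5 arrays. Signal near background limits all of these values.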
